A study of Homo sapiens with 30 samples.

Results

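TeloHAEC-only regions are stretches of open chromatin that ATAC-seq found in every TeloHAEC library and in no Eahy926 library. In each of the 30 deposited peak lists the 45000 autosomal peak intervals of highest -log10 p-value were taken as strong peaks, and overlapping strong peaks of all lists were merged into 104365 regions. A region was kept when it held a strong peak in all 15 TeloHAEC libraries and no peak of any strength in the 15 Eahy926 libraries, which left 1111 regions. The regions were thus chosen by the places and the presence of peaks in each line, and the difference between the lines is given as a description, with no test.

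TeloHAEC are human aortic endothelial cells immortalized with telomerase, and Eahy926 is a hybrid endothelial line, known to have been made by fusing umbilical vein endothelial cells with the lung carcinoma line A549. Both were parental lines. TeloHAEC formed 5 groups of 3 replicates: a control from the day 0 library preparation, a control from day 1, 10 ng/ml IL1b for 24 hours, 10 ng/ml TNFa for 24 hours, and medium from which VEGF was left out, the last 3 all from day 1. Eahy926 had the same groups of 3, except that VEGF was added to its medium, which otherwise has none. The lines were grown in different media, so the line and the medium cannot be told apart, and each line is a single cell line. The numbered replicates are biological replicates per the labels, and each library came from a single well of cells, so p-values measure the spread between such wells.

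ATAC-seq uses the Tn5 transposase, which inserts sequencing adapters into DNA that is not wrapped in nucleosomes, so peaks mark promoters, enhancers and other accessible elements. Enhancers differ between related cell types more than promoters do, and endothelial enhancers are known for binding sites of ETS, SOX, GATA and AP-1 factors. Human chromosome 19 carries large clusters of KRAB zinc finger genes, which encode DNA-binding repressors, many of them directed at transposable elements.

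The sequences below are promoters of genes whose start lies at a TeloHAEC-only region: the 2 genes of the lists examined here for which this held, CXCL11 and CDKN2B, and 2 zinc finger genes of chromosome 19. They come from RefSeq on GRCh38.p14, run from 250 bases before to 50 bases after the start, and are given 5′ to 3′ on the gene's strand. The peak lists are on hg19, so only the gene links a promoter to a region. CXCL11, a chemokine that binds the receptor CXCR3, has its promoter at chr4:76036021-76036320, minus strand, and CDKN2B, the cell cycle inhibitor p15, at chr9:22009256-22009555, minus strand. Capitals in these promoters mark GGAA, the core that ETS factors recognize, on either strand (TTCC).
CXCL11: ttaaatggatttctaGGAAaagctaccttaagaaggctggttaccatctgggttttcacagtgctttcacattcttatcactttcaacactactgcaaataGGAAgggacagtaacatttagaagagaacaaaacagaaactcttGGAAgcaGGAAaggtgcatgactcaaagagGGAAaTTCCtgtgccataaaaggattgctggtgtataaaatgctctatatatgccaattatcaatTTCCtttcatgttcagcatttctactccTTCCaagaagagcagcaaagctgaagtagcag
CDKN2B: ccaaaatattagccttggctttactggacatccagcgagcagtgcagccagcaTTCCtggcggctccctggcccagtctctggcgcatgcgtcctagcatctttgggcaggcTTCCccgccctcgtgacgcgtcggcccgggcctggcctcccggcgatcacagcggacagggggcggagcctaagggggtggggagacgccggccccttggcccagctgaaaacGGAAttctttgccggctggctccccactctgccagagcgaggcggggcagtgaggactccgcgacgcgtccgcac
The promoter of CXCL11 held 8 matches to GGAA and no CG dinucleotide, and that of CDKN2B held 3 matches and 25 CG dinucleotides. At least 1 GGAA was in 95.5% of all 27305 promoters, and the median promoter held 14 CG dinucleotides. Of the other words searched on both strands, TGANTCA matched once in the CXCL11 promoter and in 7.76% of all promoters, and GATAA matched 2 times there and in 23.2% of all promoters. CANNTG matched once in each of the 2 promoters and in 68.9% of all promoters.

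ZNF91, a repressor known to act on SVA retrotransposons, had its promoter at chr19:23395422-23395721, minus strand, and ZNF563 at chr19:12333584-12333883, minus strand. These were the 2 zinc finger genes with the strongest TeloHAEC-only regions at their start among those with a single promoter entry, and they were chosen after their values were seen. Capitals mark the longest run of bases that both share.
ZNF91: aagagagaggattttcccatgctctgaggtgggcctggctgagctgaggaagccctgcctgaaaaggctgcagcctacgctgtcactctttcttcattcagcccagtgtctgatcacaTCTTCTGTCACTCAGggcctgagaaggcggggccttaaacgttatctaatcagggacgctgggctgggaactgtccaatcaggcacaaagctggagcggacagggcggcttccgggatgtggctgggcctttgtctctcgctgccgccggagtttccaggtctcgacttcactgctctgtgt
ZNF563: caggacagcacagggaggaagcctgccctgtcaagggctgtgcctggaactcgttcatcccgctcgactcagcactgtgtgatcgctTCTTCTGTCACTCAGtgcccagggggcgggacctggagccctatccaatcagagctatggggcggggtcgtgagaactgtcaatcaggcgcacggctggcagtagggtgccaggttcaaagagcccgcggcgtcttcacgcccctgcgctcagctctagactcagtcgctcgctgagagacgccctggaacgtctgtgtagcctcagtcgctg
The shared run, TCTTCTGTCACTCAG, is 15 bases long and was found, on either strand, in 4 of 28 zinc finger promoters at a TeloHAEC-only region, 2 of which are the promoters that defined it. It was in 13 of all 167 zinc finger promoters with a written start (7.78%), in 3 of 61 zinc finger promoters that were open in all libraries of both lines and in 17 of all 27305 promoters (0.0623%). The 28 promoters at TeloHAEC-only regions held a median of 20.5 CG dinucleotides (range 9 to 30), and the 61 open in both lines held 22 (9 to 35). CANNTG, the E-box word, was in 9 of the 28 (32.1%) and in 41 of the 61 (67.2%), against 68.9% of all promoters. GGAA was in all of both sets. CACCC was in 13 of the 28 (46.4%) and 31 of the 61 (50.8%), and ACAAT in 6 (21.4%) and 13 (21.3%). A match is a description of these letters in this window only.

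The 30 libraries held between 4016678 and 14040011 tags, of which 3577273 to 11404955 remained after duplicates were removed, and their lists held 49774 to 115794 autosomal peaks. Tags were 30 bp long in the 6 day 0 libraries and 40 bp in the 24 day 1 libraries. TeloHAEC lists (67804 to 115794 peaks) were longer than Eahy926 lists (49774 to 85525), so a region without a peak was easier to come by in Eahy926. A peak list has no tag count per region, so depth limits a value only through the order of the list, and no counting interval can be given. Of the listed marker genes with a written start, none of 8 blood cell genes had any region at its start. A strong peak in all 15 TeloHAEC libraries lay at 1 of 17 epithelial and 1 of 9 smooth muscle and fibroblast starts. The same held for 10 of 30 endothelial receptor and junction genes and 7 of 11 housekeeping genes. For all 15 Eahy926 libraries these counts were 1, 2, 13 and 9, in the same order. Any region lay at 8, 4, 25 and 11 of these starts.

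Regions that were strong throughout TeloHAEC were mostly open throughout Eahy926 too, and the remainder was spread from nearly all Eahy926 libraries to none, with more regions towards both ends. Of 19086 regions strong in all 15 TeloHAEC libraries, 15079 (79.0%) had a peak in all 15 Eahy926 libraries. The 1111 TeloHAEC-only regions were 5.82%, and the other 2896 had a peak in 1 to 14 Eahy926 libraries. Of these, 246 had a peak in exactly 1 library, 93, the fewest, in exactly 6, and 747 in exactly 14. The mirrored rule found 365 Eahy926-only regions, 1.86% of 19627. With all lists shortened to the 49774 strongest peaks the 2 counts were 1514 and 799, so TeloHAEC had more line-only regions with lists of equal length as well.

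**Figure D1:**
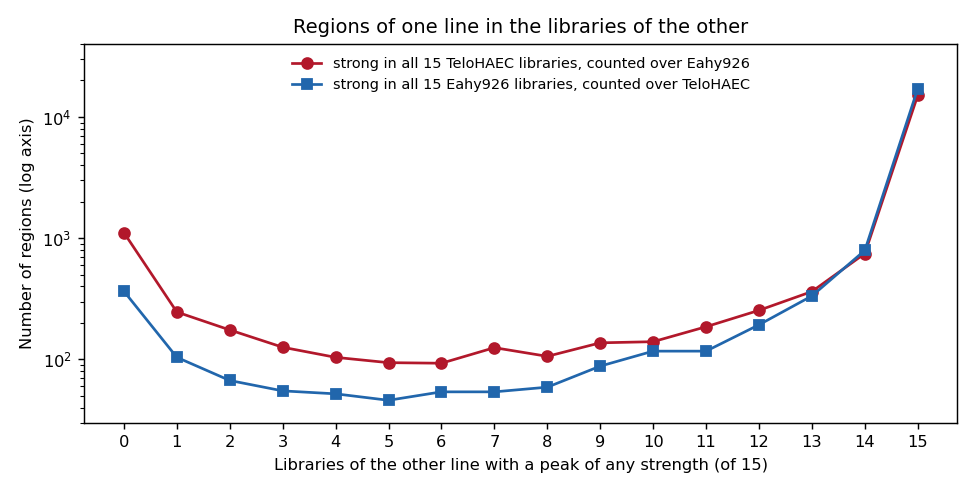
Number of regions (log axis) with a strong peak in all 15 libraries of one line, by the number of libraries of the other line (of 15) with a peak of any strength; red circles start from TeloHAEC, blue squares from Eahy926. Both lines are U-shaped, with 1111 TeloHAEC regions and 365 Eahy926 regions at 0.

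At the edge of the rule, the weakest TeloHAEC place of a kept region ranged from 4057 to 44998 with a median of 33178, and 68 regions had it in the last 1000 strong places. Here a place is the position of the best overlapping peak in the library's list, with 1 the strongest. Just outside, 505 regions without any Eahy926 peak were strong in 14 of 15 TeloHAEC libraries, and 487 of them had a weaker peak in the remaining one. The library that fell short was most often the day 0 control replicate 3 (83 regions) or replicate 2 (71 regions), or TNFa replicate 3 (66 regions). In the 246 regions excluded by 1 Eahy926 library alone, that peak had a median place of 62130 (best 25292, last 85377), and Eahy926 day 0 control replicate 3 supplied it in 44. Without the 6 day 0 libraries the rule kept 1815 regions, and with only the 30000 strongest peaks per list it kept 456.

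TeloHAEC-only regions were on the whole of middle strength within TeloHAEC. Their median place over the 15 libraries ranged from 475 to 36481 with a median of 13881, against 11420 for the other 17975 regions strong in all 15. A median place within the first 5000 was reached by 117 of them (10.5%), against 3475 (19.3%) of the others. They were narrower, with a median width of 653 bp (281 to 1466) against 785 bp, and Eahy926-only regions had a median of 558 bp. Strength here is a place within a list and follows the library's own order, not an amount of open chromatin.

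The strongest single elements lay away from listed promoters, as did all but 2 of the 1111 TeloHAEC-only regions. First came chr13:109115642-109116301, with places 1352, 3682 and 6080 in the day 0 controls, 125, 193 and 20 in the day 1 controls, 499, 284 and 70 with IL1b, 930, 55 and 665 with TNFa, and 88, 694 and 475 without VEGF. All 12 day 1 libraries placed it ahead of every day 0 library. Second was chr10:128038887-128039935, inside ADAM12, which encodes a membrane metalloprotease, about 37.7 kb from its start. Its median place was 521 (best 33, last 4057), and its day 0 places of 1698, 3406 and 186 overlapped those of day 1. Next came chr2:104018108-104018762, with a median place of 605 (80 to 7706).

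The fourth strongest, chr20:6665616-6666553, had a median place of 700 (29 to 7203) and had no listed gene start within 50 kb. The next were chr8:109960728-109961503 (median place 808, 18 to 4228), chr2:198793876-198794567 (839, 151 to 20828) and chr5:123036145-123036888 (839, 192 to 6281). Inside FRMD3, a FERM domain gene, chr9:86125876-86126399 had a median place of 970 (128 to 15914). These 8 regions were the TeloHAEC-only regions with a median place within the first 1000. The remaining 4 of the 12 strongest were chr7:138084999-138085692 (1242), chr10:4085912-4086631 (1366), chr3:27600936-27601814 (1509) and chr1:220310715-220311285 (1589).

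Variation among TeloHAEC libraries was expressed as the SD of the rank score, log2 of 49775 divided by the place, so that 1 unit is a doubling in place and a region below the 49774th place scores 0. The median SD over the 15 libraries was 0.90 for TeloHAEC-only regions (0.26 to 2.72) and 0.96 for the other regions strong in all 15. The steadiest was chr16:83802493-83803260, whose places ran from 11181 to 23945 with a median of 16457 (SD 0.26). The other 4 of lowest spread were chr14:56471446-56472301 (SD 0.30), chr4:5034741-5035561, chr9:84211611-84212514 inside TLE1 and chr12:89847423-89848508 (SD 0.32 each). The most variable was chr8:134931642-134932380 (SD 2.72), with places 31121, 30061 and 34530 in the day 0 controls and 39 to 13193 in the 12 day 1 libraries, which did not overlap. It was followed by chr8:109960728-109961503 (SD 2.49), the ADAM12 region (2.39), chr15:95150373-95150958 (2.37) and chr9:8400253-8400967 (2.33).

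Many of the TeloHAEC-only regions at the gene starts examined here lay at zinc finger genes of chromosome 19. Of 197 such starts, 131 had a region within 1 kb that was strong in all 15 TeloHAEC libraries, 72 had one strong in all 15 Eahy926 libraries, and 68 of the 72 were strong in both. At 35 starts the region was TeloHAEC-only, which is 26.7% of the 131, while no start lay at an Eahy926-only region. Over the genome the share was 5.82%, and among 81 listed genes of other families whose start was strong in all 15 TeloHAEC libraries it was 2.47% (2 genes). In the other direction, the ZNF43 start had no strong TeloHAEC peak and a peak in all 15 Eahy926 libraries, strong in 14. An Eahy926-only region lay within 50 kb of 1 of the 197 starts. The starts were written by hand from general knowledge with the regions already in view, and the zinc finger genes were chosen for that reason, so these counts are a description, and a start may be off or another gene may lie nearer.

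**Figure D2:**
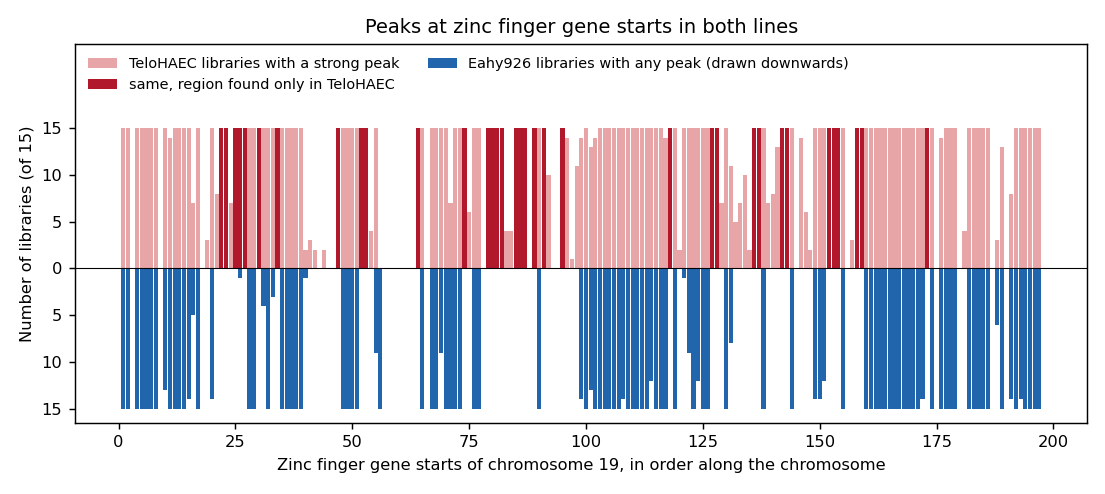
Libraries with a peak at 197 zinc finger gene starts, in their order along chromosome 19. Bars upwards count TeloHAEC libraries with a strong peak (of 15; dark red where the region is TeloHAEC-only), bars downwards Eahy926 libraries with any peak; of the 35 dark bars, 25 stand next to another dark bar and 10 do not, and none has blue below it except 1 start that also touches a second region with a peak in 1 Eahy926 library.

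The 35 regions at zinc finger starts had median places from 2150 to 27102. The strongest was at ZNF91, chr19:23577784-23578555, with places 2007, 912 and 5941 in the day 0 controls, 1103, 5762 and 2730 in the day 1 controls, 1420, 4192 and 121 with IL1b, 2824, 8556 and 1797 with TNFa, and 2150, 3618 and 1511 without VEGF. The groups overlapped throughout. ZNF738, chr19:21541564-21542435, followed with a median place of 3713 (278 to 14538), then ZNF585A, chr19:37663326-37664005, with 3803 (465 to 7079), and ZNF563, chr19:12443994-12444860, with 4133 (656 to 14570). The weakest was at ZNF569, chr19:37957687-37958576, with a median place of 27102 (649 to 41261).

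Of the 35 zinc finger starts, 25 were next to another such start in the order along the chromosome, and 10, ZNF91 and ZNF563 among them, were not. In chr19:37063809-37342094 there were 7 TeloHAEC-only regions among 9 regions in all, none with an Eahy926 peak, near ZNF260, ZNF382, ZNF461, ZNF567, ZNF850 and ZNF345. In chr19:12098218-12267833 there were 6 among 10 regions, 2 of which had an Eahy926 peak, near ZNF763, ZNF433, ZNF878, ZNF844, ZNF788P, ZNF20, ZNF625 and ZNF136. Near here means within 50 kb. The starts of ZNF260 and ZNF136, outside these stretches, had strong peaks in all 15 libraries of each line, and ZNF382 had no region at its start. In chr19:53400289-53466688 all 4 regions were TeloHAEC-only, near ZNF320, ZNF816 and ZNF468. The count of 35 starts was 36 with the 3 libraries of fewest tags left out, 37 without the 6 day 0 libraries, 36 when only the 45000 strongest Eahy926 peaks excluded a region, and 20 with the 30000 strongest peaks per list; these settings were chosen after the data were seen.

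Few of the listed genes, endothelial or other, had a TeloHAEC-only region nearby. Of 264 listed genes with a written start, 14 had one within 50 kb, and 13 TeloHAEC-only regions were involved. This is 2.75% of the 472 regions near these genes that were strong in all 15 TeloHAEC libraries (5.82% over the genome). For the endothelial lists the share was close to that of the genome. It was 4.35% of 69 such regions near receptor and junction genes and 6.0% of 50 near transcription factors. No listed gene had an Eahy926-only region within 50 kb. By list, 3 of 30 endothelial receptor and junction genes (KDR, ENG, CLDN5), 3 of 25 endothelial transcription factors (EPAS1, ETS1, ELK3), 3 of 31 NF-kB, cytokine and adhesion genes (NFKBIA, CXCL10, CXCL11), 3 of 29 coronary risk genes (CDKN2A, CDKN2B, ZC3HC1), 1 of 27 TGF-beta, BMP and matrix genes (BMP2) and 1 of 11 housekeeping genes (SDHA) had one. None was near the 20 arterial, venous and Notch genes, the 35 positional transcription factors, the 13 coagulation genes, the 15 AP-1 and early response genes, or the epithelial, smooth muscle and blood cell markers.

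The elements near endothelial receptors and factors ranged widely in strength, with ENG ahead of the TeloHAEC-only median and KDR and CLDN5 behind it. ENG, a TGF-beta co-receptor, had chr9:130644912-130645399 about 28.1 kb from its start, with a median place of 6195 (1824 to 42845). KDR, the main VEGF receptor, had chr4:55945938-55946468 about 45.6 kb away (25781, 14047 to 43032), and CLDN5, a tight junction protein, had chr22:19484539-19485279 about 28.0 kb away (28004, 12340 to 40643). Among transcription factors, the ETS family member ELK3 had chr12:96635588-96636085 (11808, 2599 to 24312), the hypoxia factor EPAS1 had chr2:46486253-46486891 (13835, 1947 to 28281), and ETS1 had chr11:128465087-128465637 about 7.91 kb from its start (24182, 4912 to 38528). BMP2, a ligand of the BMP pathway, had chr20:6727466-6728306 about 20.9 kb away (11071, 2127 to 42227). NFKBIA, the feedback inhibitor of NF-kB, had chr14:35839023-35839557 (18216, 8254 to 39570).

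The CXCL11 start carried the strongest of the regions at listed promoters. At chr4:76956960-76957539 the places were 14357, 13982 and 20232 in the day 0 controls, 5977, 2346 and 7256 in the day 1 controls, 1811, 4607 and 4740 with IL1b, 2508, 4783 and 3001 with TNFa, and 3376, 10780 and 13602 without VEGF. The day 1 libraries stood ahead of all day 0 libraries, and the cytokine groups overlapped the day 1 control. Its rank score difference was 0.45 (SE 0.88, limma adjusted p = 0.931) for IL1b and 0.50 (SE 0.88, adjusted p = 0.923) for TNFa. The surrounding stretch without any Eahy926 peak was 65.1 kb long, chr4:76923732-76988853, and also held the start of CXCL10.

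At CDKN2B, the region chr9:22008664-22009600 overlapped the start, with places 5261, 8376 and 11190 in the day 0 controls and 23016, 21738 and 25432 in the day 1 controls. Here the day 0 libraries stood ahead of the day 1 controls, the opposite of CXCL11. The difference was -1.56 (SE 0.51) on the rank score with a limma adjusted p of 0.0584. A second region, chr9:22052512-22053024, about 43.5 kb away, had a median place of 15509 (5084 to 26770). No Eahy926 library had a peak over 310.0 kb, chr9:21832255-22142121, which held the starts of CDKN2A and CDKN2B and 3 TeloHAEC-only regions among 12 regions. A549 is known to lack CDKN2A. From a peak list, a stretch that is closed and one that is absent from the genome cannot be told apart, here or in the stretches described below.

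Further starts with a TeloHAEC-only region within 1 kb were noticed after the positions were seen. They included CHFR, a mitotic checkpoint ubiquitin ligase (chr12:133463936-133464834, median place 5291, 891 to 11935), CERS6, a ceramide synthase (chr2:169312435-169313649, 5518, 834 to 33712), and PRMT6, an arginine methyltransferase (chr1:107599062-107600391, 15529, 9790 to 28266). DAPK1, a kinase of cell death and autophagy (chr9:90112389-90113724, 26888, 12459 to 40873), and PDE7B, a cAMP phosphodiesterase (chr6:136172538-136173433, 21459, 6555 to 38120), were among the weaker ones. The start of MIR3142HG, the host transcript of the NF-kB feedback microRNA miR-146a, had chr5:159894634-159895431 (16469, 4878 to 33997). The mature microRNA is shown because it names the product of that transcript, with its seed (bases 2 to 8) in capitals, from RefSeq.
hsa-miR-146a-5p: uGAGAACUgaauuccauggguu
The region at this start had places 10180, 16469 and 28992 in the day 1 controls, 14351, 6865 and 10656 with IL1b and 27602, 7336 and 4878 with TNFa. The groups overlapped, and the differences of 0.74 (SE 0.66, limma adjusted p = 0.787) and 0.77 (SE 0.66, adjusted p = 0.804) did not pass the test.

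Most TeloHAEC-only regions stood alone, and some lay in groups. Of the 1111, 354 (31.9%) had another within 100 kb, and the median distance to the nearest was 298.0 kb. Of 365 Eahy926-only regions, 81 (22.2%) had another within 100 kb, a set that is sparser to begin with. The same share was not counted for other regions strong in TeloHAEC. Chaining regions at most 100 kb apart left 757 alone, 264 in groups of 2 or 3, and 90 in 18 groups of 4 or more. In none of the 18 groups was a region strong in all 15 Eahy926 libraries.

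The largest group was 8 regions at chr6:46843739-47103935, over and beside ADGRF5, an adhesion receptor of endothelium and lung epithelium, where 24 regions in all included 1 with an Eahy926 peak. Its strongest element, chr6:46843739-46844446, had a median place of 3502 (1410 to 19078). DAPK1 had 7 at chr9:90060497-90272498, with no Eahy926 peak in any of 19 regions there. ADAM12 had 6 at chr10:127887732-128180616, and TNR, an extracellular matrix glycoprotein, had 5 at chr1:175477702-175567778. On chromosome 8, 5 regions at chr8:40010667-40068686 lay at and beside TCIM, the strongest with a median place of 3910, and 5 at chr3:64893656-65025977 had no Eahy926 peak among 10 regions.

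Counted within approximate gene bodies, PRKG1, the cGMP-dependent kinase, held 7 TeloHAEC-only regions in a gene of about 1310.0 kb, DAPK1 held 6 and FRMD3 held 5. In FRMD3 none of 12 regions had an Eahy926 peak, and the same held for the 11 regions of ADGRF5, the 10 of the phosphodiesterase gene PDE10A and the 11 of ZMAT4. In PDE4D, by contrast, 61 of 76 regions had an Eahy926 peak beside its 4 TeloHAEC-only ones, and in PTPN14 11 of 17 beside 3. IL33, an alarmin cytokine held in endothelial nuclei, had 1, chr9:6248021-6248807, with a median place of 8368 (335 to 30063). These genes were picked after the positions were seen, so their counts describe where the regions lie and support nothing further.

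Some TeloHAEC-only regions stood in long stretches with no Eahy926 peak at all, while most had one nearby. The nearest Eahy926 peak was at a median distance of 9.14 kb (6 bp to 600.0 kb). It lay within 1 kb for 93 regions and within 10 kb for 585, and 181 had none within 50 kb. Single stretches free of Eahy926 peaks held up to 7 TeloHAEC-only regions: chr9:89563768-90277913 (714.0 kb, with DAPK1), chr9:85576834-86159456 (583.0 kb, with FRMD3) and chr19:37019897-37498829 (479.0 kb, with zinc finger genes). A 586.0 kb stretch, chr4:101269933-101856394, held the start of EMCN, the endothelial sialomucin endomucin, and 4 TeloHAEC-only regions. None of these 4 regions lay within 50 kb of the EMCN start. The longest was chr1:193970888-196463557, 2490.0 kb with 2 of them.

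By chromosome, the share of TeloHAEC-strong regions that were TeloHAEC-only ran from 2.97% on chromosome 16 (20 of 674) to 11.6% on chromosome 13 (53 of 457). Chromosome 4 had 8.60% (71 of 826), chromosome 10 had 7.86% (70 of 891) and chromosome 19 had 7.14% (60 of 840). Of the 60 on chromosome 19, 35 were the regions at zinc finger starts described above. The Eahy926-only share was 4.68% on chromosome 13 (13 of 278) and 0.573% on chromosome 19 (5 of 872), against 1.86% over all autosomes. Chromosome 13 was thus above the overall share in both directions, and chromosome 19 in the TeloHAEC direction only, as were chromosomes 9 (7.51% and 1.40%) and 10 (7.86% and 1.58%). Chromosomes 3, 4, 8, 18 and 21 were among the others above both shares. The highest Eahy926-only share was on chromosome 21 (6.44%, 13 of 202), beside 6.67% for TeloHAEC. Chromosomes 11, 14, 16 and 17 were among those below both, chromosome 17 with 3.11% and 0.805%. Chromosome counts between the 2 lines were not tested, because the rule used this contrast, and copy number was not measured.

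**Figure D3:**
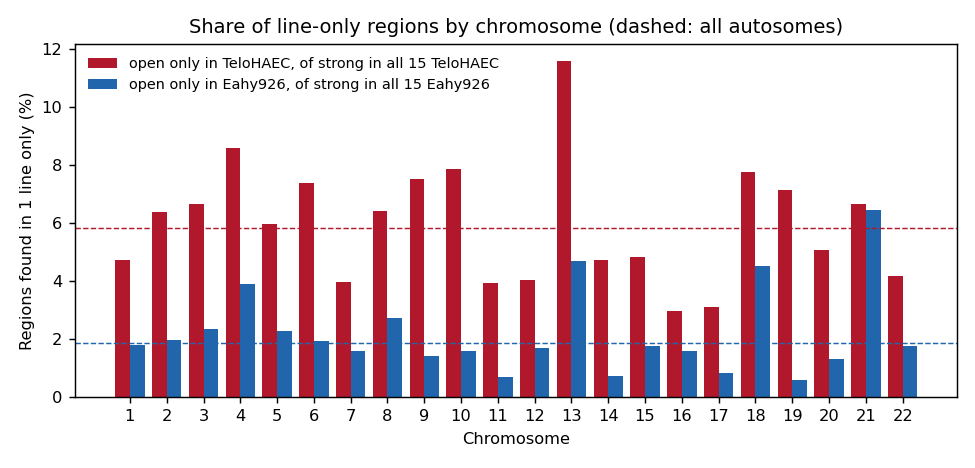
Percent of regions strong in all 15 libraries of a line that had no peak in the other line, for each autosome; red TeloHAEC, blue Eahy926, dashed lines the shares over all autosomes (5.82% and 1.86%). Chromosome 13 has the highest red bar (11.6%), and chromosome 19 has a red bar of 7.14% beside a blue one of 0.573%.

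The cytokine groups address which elements open or close in a day of inflammatory signalling. IL1b binds the IL1 receptor and TNFa the TNF receptors, and both activate NF-kB. Rank scores were compared with limma over all regions with a strong peak in at least 3 of the 12 day 1 TeloHAEC libraries; p-values were adjusted by the Benjamini-Hochberg method over all of them. All 1111 TeloHAEC-only regions were tested, since the rule gives each a strong peak everywhere. The rule also keeps out regions that a treatment closed and regions that were strong only after a treatment. For IL1b none of the 1111 passed an adjusted p of 0.05 by limma, against 0.499% of all 55950 regions tested (279). Of the other 17975 regions strong in all 15 TeloHAEC libraries, which meet the same demand, 21 passed (0.117%). An unadjusted p under 0.05 was found for 101 of the 1111 (9.09%), against 10.2% of all and 5.78% of those others. For TNFa none passed, against 2 of all regions (0.00357%) and 1 of those others (0.00556%). There 75 (6.75%) had an unadjusted p under 0.05, against 7.97% of all and 6.15% of those others.

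Directly between IL1b and TNFa none passed either, against 74 of all regions (0.132%) and 3 of those others (0.0167%). Here 72 (6.48%) had an unadjusted p under 0.05, against 7.77% of all and 5.35% of those others. For VEGF withdrawal, which removes a survival and permeability factor, none of the TeloHAEC-only regions and 0.0% of all regions passed by limma, with 55 (4.95%) at an unadjusted p under 0.05 against 5.06% and 3.87%. In each of the 4 comparisons this share was thus below that of all regions and above that of the other regions strong in all 15, and the differences between these shares were not tested. The median difference of the 1111 was -0.05 for IL1b, 0.02 for TNFa, -0.01 for IL1b against TNFa and -0.03 for VEGF withdrawal, on a scale where the median SE of one region was 0.71. The 3 treatments share the day 1 controls. With such an SE only large shifts could have passed, so smaller responses were not detectable here.

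The 3 regions of smallest p for each treatment show what such shifts look like. They were picked by p, which favours groups that do not overlap. All IL1b libraries stood ahead of all day 1 controls in 8.55% of the 1111 and behind in 8.82%. The other regions strong in all 15 had 5.56% and 7.63%. In the same order TNFa had 7.38%, 7.02%, 5.1% and 6.61%, and VEGF withdrawal 5.58%, 5.94%, 5.79% and 4.78%. IL1b against TNFa had 5.49%, 6.75%, 5.02% and 5.51%. Differences between these shares were not tested. With IL1b, chr12:30603787-30604266 had places 1689, 3727 and 5165 against 40090, 14377 and 22134 in the day 1 controls, a difference of 2.87 (SE 0.70, limma adjusted p = 0.0526); all IL1b libraries stood ahead of all controls. It passed when regions were built from the 30000 strongest peaks (adjusted p = 0.0344) and without IL1b replicate 3 (adjusted p = 0.0499). Next came chr6:143023542-143024135, with IL1b places of 25517, 27764 and 31314 against 4695, 4462 and 11076 (difference -2.19, SE 0.55, adjusted p = 0.0657), which passed with the 30000 strongest peaks too (adjusted p = 0.0353). Under that setting neither region is TeloHAEC-only, since each has a place beyond 30000 in at least 1 TeloHAEC library. The last, chr5:62557992-62558680, stood at 11356, 2274 and 7243 against 38154, 30506 and 18625 (2.29, SE 0.64, adjusted p = 0.109).

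The chromosome 6 region was also first for TNFa, at 36581, 20983 and 37858 (difference -2.32, SE 0.55, limma adjusted p = 0.351), and first for VEGF withdrawal, at 29022, 32950 and 26565 (-2.26, SE 0.55, adjusted p = 0.958). Its day 0 control places were 44164, 29788 and 27817, so the 3 day 1 controls stood ahead of all 12 other TeloHAEC libraries, and the difference between the control days was 2.43 (SE 0.54, adjusted p = 0.0158). For TNFa the others were chr13:67693623-67694190, at 719, 2786 and 1397 against 8451, 14357 and 25861 (3.38, SE 0.84, adjusted p = 0.351), and chr1:41749137-41750293, at 5910, 3993 and 1130 against 24889, 8219 and 32729 (2.66, SE 0.73, adjusted p = 0.387). The latter was also first between the cytokines, with IL1b at 8258, 18136 and 25220 (difference IL1b against TNFa -2.38, SE 0.73, adjusted p = 0.259). In both regions the TNFa libraries stood ahead of all day 1 controls.

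Between the cytokines, chr13:81204793-81205382 stood at 4717, 2683 and 3175 with IL1b and 11072, 34505 and 16780 with TNFa (2.44, SE 0.74, limma adjusted p = 0.259), and chr6:29483796-29484227 at 9779, 84 and 4865 against 33797, 5981 and 38301 (3.64, SE 1.15, adjusted p = 0.298). The first pair of groups did not overlap and the second did. Without IL1b replicate 2 the difference at chr6:29483796-29484227 was 1.52. Without VEGF, chr7:29217645-29218297 stood at 8788, 6975 and 8510 against 368, 2397 and 240 (difference -3.76, SE 1.11, adjusted p = 0.958), and chr8:61764429-61764928 stood at 13432, 14316 and 6602 against 2404, 57 and 5758 (-3.55, SE 1.16, adjusted p = 0.958). In both, every library without VEGF was behind every control, and without day 1 control replicate 2 the difference at chr8:61764429-61764928 was -1.54.

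**Figure D4:**
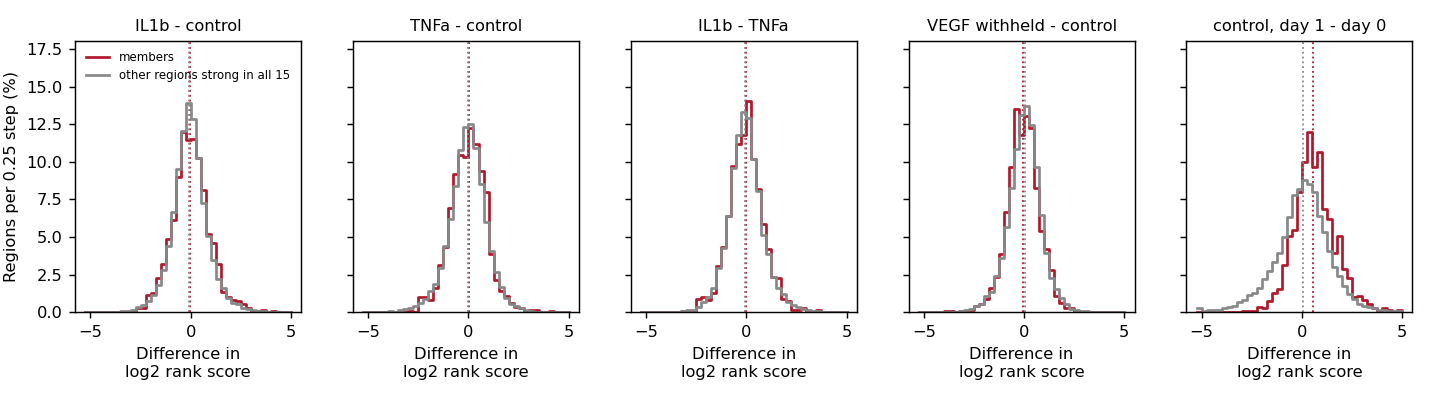
Distribution of the difference in log2 rank score for 5 comparisons within TeloHAEC, as percent of regions per step of 0.25; red the 1111 TeloHAEC-only regions, grey the 17975 other regions strong in all 15 TeloHAEC libraries, dotted lines their medians. The 4 treatment panels overlap closely, and in the day panel the red median lies at 0.55 and the grey one at 0.08.

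The day of library preparation was the only comparison in which TeloHAEC-only regions passed the test, and they did so about as often as other regions. Between the 3 controls of day 1 and the 3 of day 0, 106 of the 1111 passed by limma (9.54%). Of the other regions strong in all 15 TeloHAEC libraries 1688 passed (9.39%), and of all 45559 regions tested 12.4%. The share that passed was thus near the background, and what differed was the direction. The direction was one-sided: 101 were higher on day 1 (9.09%, against 5.46% of all regions) and 5 were lower (0.450%, against 6.91%). Of the other regions strong in all 15 TeloHAEC libraries, 712 of 17975 (3.96%) were higher and 976 (5.43%) lower. The median difference was 0.55 for TeloHAEC-only regions, 0.08 for those others and 0.04 for all regions tested, and 821 of the 1111 (73.9%) had a positive difference.

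The shift was seen in each library. The median place of the 1111 was 18013, 18437 and 18971 in the day 0 controls and 12165, 12230 and 13230 in the day 1 controls, and 11791 to 13416 in the 9 treated libraries. That of the other regions strong in all 15 was 10578 to 10943 in day 0 and 10485 to 11403 in day 1 libraries. In 316 of the 1111 (28.4%) all 3 day 1 controls stood ahead of all 3 day 0 controls, against 16.9% of all regions tested and 15.5% of the others, and in 43 (3.87%) the reverse held, against 17.8% and 16.3%. The days also differ in tag length, 30 against 40 bp, and the kept tags were 4863692 to 11404955 on day 0 and 8013868 to 9304953 in the day 1 controls; their part in the result was not tested.

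**Figure D5:**
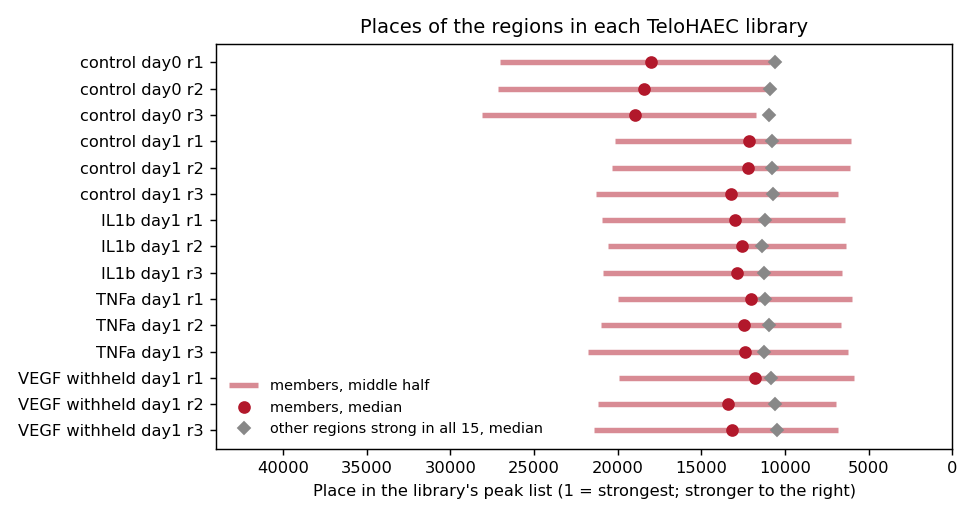
Place in the peak list (1 is the strongest, to the right) for each of the 15 TeloHAEC libraries: red circles the median of the 1111 TeloHAEC-only regions with bars from their lower to their upper quartile, grey diamonds the median of the 17975 other regions strong in all 15. The 3 day 0 controls have red medians of 18013 to 18971 and the 12 day 1 libraries between 11791 and 13416, while the grey medians stay between 10485 and 11403.

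At the written gene starts the day difference was centred at or below 0. The 35 at zinc finger starts had a median day difference of -0.16, with 14 positive, none called higher and 1 called lower by limma, and the 1066 regions away from every written start had a median of 0.59 with 101 called higher and 4 lower. Outside the TeloHAEC-only regions, 94 regions strong in all 15 at zinc finger starts had a median of -0.11, and 81 at listed starts had -0.88 with 11 called lower. Regions away from the written starts can include promoters of genes for which no start was written. The difference between the written starts and other regions was not itself tested.

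Among regions higher on day 1, the smallest p was at chr20:10057140-10057943, with places 22023, 23953 and 25501 on day 0 and 1748, 676 and 1700 on day 1 (difference 4.24, SE 0.69, limma adjusted p = 0.0104). It was followed by chr19:13540163-13540735 (2.98, SE 0.56, adjusted p = 0.0111), chr11:42669388-42670174 (4.26, SE 0.81, adjusted p = 0.0113), chr2:175817334-175817834 (3.21, SE 0.61) and chr1:232725331-232725984 (3.20, SE 0.61, both adjusted p = 0.0117). In all 5 the groups did not overlap. The 12 treated and control day 1 libraries placed the chromosome 20 region between 382 and 7061, ahead of every day 0 library. The strongest of all TeloHAEC-only regions, on chromosome 13, rose by 5.31 (SE 1.31, limma adjusted p = 0.0224), and the BMP2 region 20.9 kb from the start by 1.54 (SE 0.46, adjusted p = 0.0429).

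All 5 regions lower on day 1 are named here. The region at the ZNF813 start, chr19:53970470-53971453, stood at 4452, 6394 and 6985 on day 0 and 21274, 32379 and 19085 on day 1 (-2.02, SE 0.53, limma adjusted p = 0.0286). The others were chr4:188829128-188829780 (-1.79, adjusted p = 0.0314), chr7:2681042-2681684 (-1.93, adjusted p = 0.0447), chr15:71375514-71376134 (-2.52, adjusted p = 0.0465) and chr7:124405538-124406273 (-1.45, adjusted p = 0.0466). Without 1 replicate in turn, between 0 and 2 regions were called lower; the ZNF813 and chromosome 15 regions each kept their call in 1 of 6 such fits and the other 3 in none, and the chromosome 15 difference was -1.54 without day 0 replicate 3. The 5 named regions higher on day 1 kept theirs in all 6. Leaving out any 1 day 0 control lowered the calls to between 26 and 32, ordering the lists by fold enrichment gave 36, and testing all regions without the filter gave none of either direction (290 at an unadjusted p under 0.05 by limma). The median difference of the TeloHAEC-only regions stayed between 0.36 and 0.68 over these settings.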

How the data were processed

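ATAC-seq peak lists of 30 libraries were used. Per the file headers, peaks were called in each library separately with MACS 2.1.1.20160309 in single-end mode, without a control library and with 1 tag kept per position; Bowtie2, MACS2 and hg19 are named in the submitters' processing notes. The deposited lists give, per the file headers, the pileup (signal), the -log10 p-value, the fold enrichment (ratio) and the -log10 q-value of each summit, as the authors' caller wrote them, with no count per region. Summits of 1 interval were joined, keeping the highest value. Regions and their choice are as given above; the best overlapping peak (1 bp or more) gives the place. Lists of different length were made comparable by scoring only the first 49774 places. limma 3.58.1 (moderated test with trend, R 4.3.3) compared rank scores, with all 12 day 1 TeloHAEC libraries in 1 fit and the 6 controls in another, over regions with a strong peak in at least 3 of them; the fit was tested on simulated data. The members, gene lists and tests were chosen with earlier results of these data known. Named regions were the 12 of best median place, up to 4 per gene list within 50 kb, all within 1 kb of a listed start, those of smallest p (5 per direction where called, otherwise 3) and the 5 of lowest and highest spread; others were chosen after their values were seen. No hg19 annotation was used here: 496 gene starts were written by hand from general knowledge with the regions in view. All 496 lay on the chromosome that RefSeq (GRCh38.p14) gives and 473 of 474 neighbouring pairs in its order, which does not test a position to within 1 kb. A region lay within 1 kb of 81.0% of them, and of 16.5% when moved by 20 kb. As the starts were written with the regions in view, this overlap cannot check the positions. Alternatives were the overlap, the order, the number of strong peaks, the filter, the scale, the libraries fitted, the replicate number as a block and each library left out.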

Additional observations from a re-analysis of the deposited data

How the results depend on the processing

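The number of TeloHAEC-only regions was 1111, ranged from 1114 to 1194 with each of the 30 libraries left out in turn, and moved by over 1.5 times in 2 settings, to 456 with the 30000 strongest peaks per list and to 1815 without the 6 day 0 libraries, a setting chosen after seeing the data. The 35 zinc finger starts at such a region were 20 with the 30000 strongest peaks and 35 to 37 in the other settings tried.

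TeloHAEC-only regions called for IL1b numbered 0 and were 1 with lists ordered by fold enrichment (a region that is TeloHAEC-only under that ordering alone) and 0 to 1 without a replicate; each IL1b replicate left out gave 1, and each time another region. With the 30000 strongest peaks it was 0 of 456, because the 2 regions of the 1111 that passed there are not TeloHAEC-only under that setting. All regions called for IL1b were 279, 155 with no filter, 0 with normal scores, 28 with only the 2 groups fitted, and 7 to 258 without a replicate. For TNFa they were 2, then 0 by fold enrichment, 6 with 30000 peaks, 10 with no filter, 1 with normal scores, 0 with only the 2 groups and 0 to 5 without a replicate. For VEGF withdrawal they were 0, and 7 with no filter. For IL1b against TNFa they were 74, then 0 with normal scores, 0 with only the 2 groups and 9 to 95 without a replicate. For TNFa, VEGF withdrawal and IL1b against TNFa no setting called a TeloHAEC-only region.

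Between the control days, TeloHAEC-only regions called were 106, then 36 by fold enrichment, 56 with 30000 peaks (of 456), 0 with no filter and 26 to 105 without a replicate; without day 0 replicate 1, 2 or 3 they were 30, 26 and 32. All regions called were 5633, then 2052 by fold enrichment, 0 with no filter and 1808 to 3515 without a replicate. The cause was not tested. The named regions kept their direction in all settings, and 48 of 120 values of the day regions lost their call.

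Same-numbered replicates of day 1 had a median correlation of -0.0035 over 18 pairs, none over 0.1. No pairing by number was thus seen among the day 1 libraries, and pairing between the days was not examined. With the replicate block 141 TeloHAEC-only regions were called between the days (6925 of all), and 0 for each treatment.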
